A study of Mus musculus with 8 samples.

Results

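Mast cells store proteases in their granules, and 10 genes of these cells were followed here in colonic tumors: the mucosal proteases Mcpt1 and Mcpt2, the connective tissue proteases Mcpt4, Cma1, Tpsb2, Tpsab1 and Cpa3, the receptors Kit and Ms4a2, and the histamine-forming enzyme Hdc. They were chosen by name, as known genes of this cell type, and for each the probe set with a single gene symbol was used, the brightest if there were several. All 10 had 1 such probe set, among 22180 genes with a 1-symbol probe set and 41345 probe sets in all. The arrays held 8 adenomas, each from a different male FVB/N mouse: 4 from MDR1A KO mice and 4 from WT mice. The deletion in the MDR1A KO mice was global, so it was not limited to a tissue or a cell type. Both groups had received the same treatment, which began at 6 weeks of age with the carcinogen azoxymethane (AOM, 10 mg/kg). They then drank 2.5% dextran sulfate sodium (DSS), which injures the colonic epithelium, for 7 days from days 0, 21 and 42, until the endpoint on day 84. Untreated colons were not analysed here, so all values compare tumors with tumors.

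Rodent mast cells are classed by where they live and by the proteases in their granules. Mucosal mast cells sit in and under the gut epithelium, multiply during intestinal inflammation and worm infection under T cell cytokines, and carry the chymases encoded by Mcpt1 and Mcpt2. Connective tissue mast cells of the submucosa, skin and peritoneum instead carry the chymases of Mcpt4 and Cma1, the tryptases of Tpsb2 and Tpsab1, and carboxypeptidase from Cpa3, although Cpa3 is also made by other cells of the lineage. Both kinds depend on KIT, the receptor for stem cell factor, and release their granules when IgE bound to its high-affinity receptor is cross-linked, a signal that the receptor's beta chain, encoded by Ms4a2, amplifies.

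Signals are RMA values, which are probe set intensities on a log2 scale after quantile normalization, so that 1 unit is a 2-fold difference. They serve to compare tumors for 1 gene and not genes with each other. Abcb1a, the gene deleted in the MDR1A KO mice, had 6.14, 6.13, 6.37 and 6.87 in the MDR1A KO tumors, against 8.69, 9.10, 9.46 and 8.93 in the WT tumors, in replicate order, which matched the labels. Array medians lay between 5.62 and 5.67. Each array's mean correlation with its own group was 0.985 to 0.986 for the MDR1A KO tumors and 0.973 to 0.979 for the WT tumors, with the lowest value in WT replicate 4. The mean of 10 colon epithelium markers was 10.41 to 10.71 in the MDR1A KO tumors and 10.68 to 10.82 in the WT tumors, as the tissue label implies. In whole tumors, fewer mast cells and less RNA per mast cell cannot be told apart.

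The mucosal proteases varied widely among WT tumors and little among MDR1A KO tumors. Mcpt1 had 9.37, 9.87, 9.69 and 9.69 in the 4 MDR1A KO tumors, against 7.54, 6.39, 7.61 and 11.26 in the 4 WT tumors. All MDR1A KO tumors thus lay above WT replicates 1 to 3 and below WT replicate 4, which was the highest of the 8. Mcpt2 had 8.94, 9.35, 9.37 and 9.31 in the MDR1A KO tumors, against 7.62, 6.80, 7.85 and 10.84 in the WT tumors, again with every MDR1A KO tumor between WT replicate 4 and the other WT tumors. Expressed as folds between the highest and lowest tumor, Mcpt1 spanned 1.41-fold among MDR1A KO tumors and 29.4-fold among WT tumors. Mcpt2 spanned 1.35-fold among MDR1A KO tumors and 16.5-fold among WT tumors.

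The mean of Mcpt1 was 9.66 ± 0.21 in MDR1A KO tumors and 8.20 ± 2.12 in WT tumors (SD, n = 4 each), a log2 difference of 1.46 (95% confidence interval -0.47 to 3.38), or 2.74-fold. The difference was smaller than the SD among WT tumors. For the difference in means, limma gave an adjusted p of 0.833 and the two-sided exact permutation test p = 0.14. Mcpt2 averaged 9.24 ± 0.21 in MDR1A KO tumors and 8.28 ± 1.77 in WT tumors, with a log2 difference of 0.96 (-0.65 to 2.58; limma, adjusted p = 0.867; exact permutation p = 0.37). With 4 tumors against 4, the smallest p that the 70 arrangements allow is 0.029. Without WT replicate 4, which was singled out after its values were seen, the log2 difference became 2.48 for Mcpt1 (1.83 to 3.13; limma, adjusted p = 0.0797) and 1.82 for Mcpt2 (1.27 to 2.37; adjusted p = 0.126). Neither passed the adjusted threshold of 0.05 even then.

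**Figure D1:**
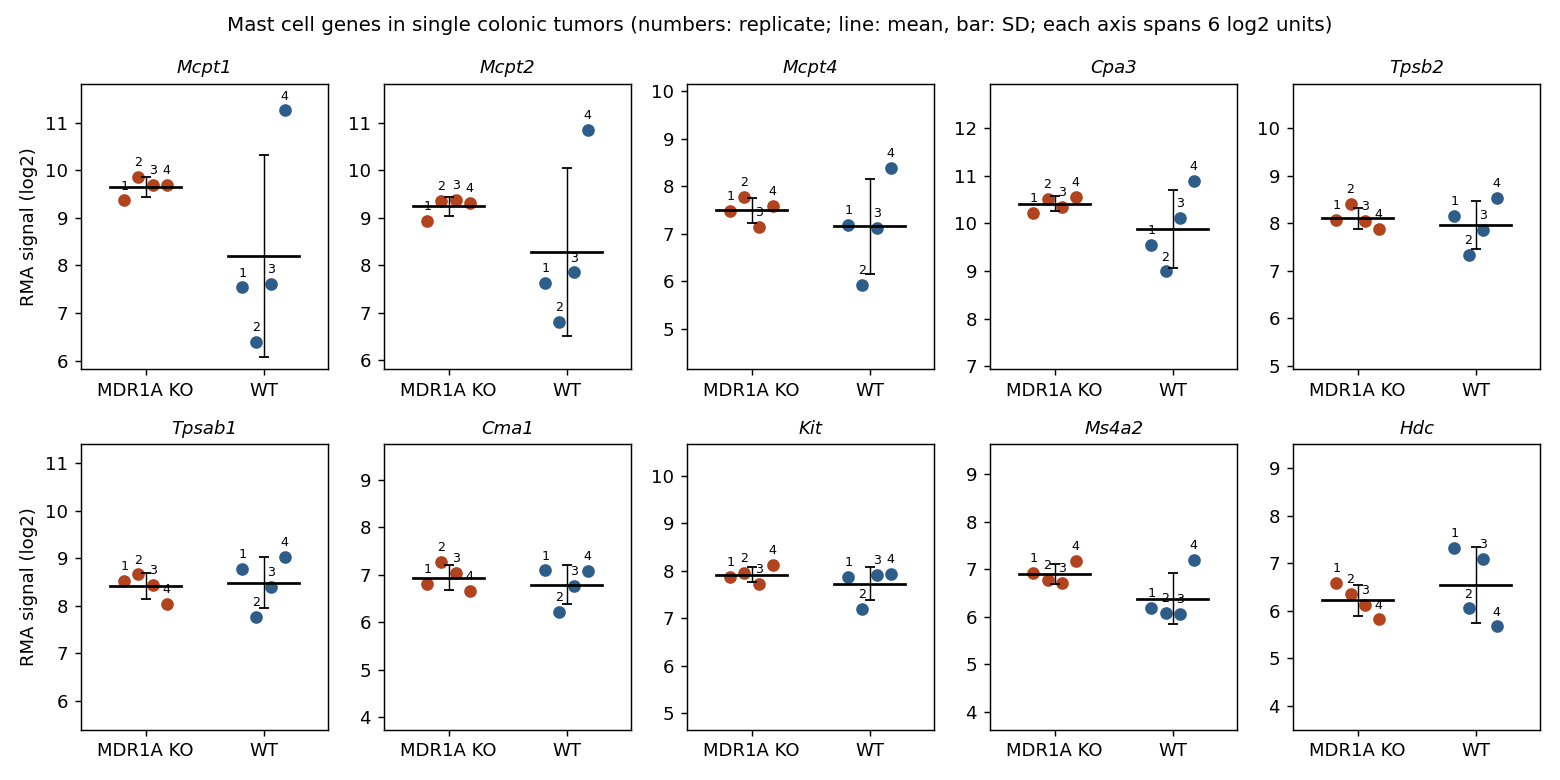
RMA signal (log2, vertical axis) of the 10 mast cell genes in each MDR1A KO and WT tumor, with the replicate number above each point, the group mean as a line and the SD as a bar. For Mcpt1 and Mcpt2 the 4 MDR1A KO tumors sit between WT replicate 4, the highest tumor, and WT replicates 1 to 3.

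Among the connective tissue proteases, Mcpt4 and Cpa3 followed the same order in weaker form. Mcpt4, a chymase that processes angiotensin and matrix proteins, had 7.49, 7.78, 7.14 and 7.58 in the MDR1A KO tumors, against 7.18, 5.93, 7.13 and 8.39 in the WT tumors. WT replicate 4 was again highest and WT replicate 2 lowest, but MDR1A KO replicate 3 fell below WT replicate 1. Cpa3, the zinc carboxypeptidase that trims peptides after chymase cleavage, had 10.22, 10.52, 10.34 and 10.56 in the MDR1A KO tumors, against 9.54, 8.99, 10.11 and 10.89 in the WT tumors. Here too every MDR1A KO tumor lay between WT replicate 4 and the other WT tumors. The log2 differences were 0.34 for Mcpt4 (-0.61 to 1.29; limma, adjusted p = 0.923; exact permutation p = 0.60) and 0.53 for Cpa3 (-0.23 to 1.29; adjusted p = 0.843; exact permutation p = 0.29). Without WT replicate 2, Mcpt4 turned to -0.07. Without WT replicate 4, the differences were 0.75 for Mcpt4 (adjusted p = 0.747) and 0.86 for Cpa3 (adjusted p = 0.634).

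The tryptases and Cma1 differed little between genotypes. Tpsb2, a tryptase that assembles into tetramers on heparin, had 8.07, 8.41, 8.05 and 7.88 in the MDR1A KO tumors, against 8.15, 7.34, 7.85 and 8.53 in the WT tumors. Tpsab1, its neighbour on chromosome 17, had 8.52, 8.66, 8.44 and 8.04 in the MDR1A KO tumors, against 8.78, 7.77, 8.39 and 9.02 in the WT tumors. Cma1, which despite its chymase name cleaves like an elastase in rodents, had 6.81, 7.26, 7.04 and 6.65 in the MDR1A KO tumors, against 7.09, 6.22, 6.77 and 7.08 in the WT tumors. In all 3 genes the groups overlapped and WT replicate 2 was lowest, while WT replicate 4 was highest for both tryptases and MDR1A KO replicate 2 for Cma1. The log2 differences were 0.14 for Tpsb2 (-0.38 to 0.65; limma, adjusted p = 0.948; exact permutation p = 0.69), -0.07 for Tpsab1 (-0.64 to 0.50; 0.977 and 0.86) and 0.15 for Cma1 (-0.32 to 0.61; 0.933 and 0.60). These intervals exclude a 2-fold change in either direction, and none of these genes passed a threshold when any 1 tumor was left out. The sign of each nevertheless changed with a single tumor: without WT replicate 2 the differences were -0.07 for Tpsb2 and -0.04 for Cma1, and without WT replicate 4 that of Tpsab1 was 0.10.

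Of the receptors, Ms4a2 came nearest to a difference and Kit showed none past its spread. Ms4a2, the beta chain of the high-affinity IgE receptor, had 6.92, 6.78, 6.72 and 7.18 in the MDR1A KO tumors, against 6.19, 6.08, 6.06 and 7.19 in the WT tumors. WT replicates 1 to 3 lay close together below every MDR1A KO tumor, and WT replicate 4 stood level with the highest of them. The log2 difference was 0.52 (-0.03 to 1.07; limma, adjusted p = 0.786; exact permutation p = 0.14), and without WT replicate 4 it was 0.79 (0.51 to 1.07; adjusted p = 0.231). Kit had 7.87, 7.96, 7.73 and 8.12 in the MDR1A KO tumors, against 7.88, 7.20, 7.92 and 7.93 in the WT tumors, where WT replicate 2 alone was low. Its log2 difference was 0.19 (-0.20 to 0.57; limma, adjusted p = 0.889; exact permutation p = 0.46). Kit is also carried by interstitial cells of Cajal, the pacemaker cells of the gut wall, whose marker Ano1 had 9.85 to 10.20 in MDR1A KO tumors and 9.60 to 10.46 in WT tumors. What part those cells have in the Kit signal was not tested.

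Hdc, the decarboxylase that makes histamine, did not share the high level of WT replicate 4. It had 6.58, 6.35, 6.13 and 5.82 in the MDR1A KO tumors, against 7.33, 6.05, 7.09 and 5.67 in the WT tumors. WT replicate 4, highest for 7 of the 10 genes, was lowest for Hdc, and WT replicate 1 was highest, while WT replicate 2 lay low as in the other genes. The log2 difference was -0.31 (-1.11 to 0.48; limma, adjusted p = 0.915; exact permutation p = 0.49). Hdc is made by other myeloid cells as well as mast cells, and the mean of 8 neutrophil markers was 6.09 to 7.26 in MDR1A KO tumors and 5.53 to 7.74 in WT tumors, likewise highest in WT replicate 1 and lowest in WT replicate 4. The part of neutrophils in the Hdc signal was not tested.

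Counted over the 10 genes, 8 had a higher mean in MDR1A KO tumors and 2 a lower one. None passed an unadjusted p of 0.05 in limma, where 6.40% of the 25341 named probe sets did (3.66% higher and 2.74% lower in MDR1A KO tumors), so that the genes were called no more often than probe sets in general. None passed the criterion of the study's methods, an unadjusted p under 0.05 with at least a 2-fold change (0.241% of named probe sets), and none an adjusted p of 0.05, which 4 named probe sets (0.0158%) passed. In no gene did the groups fail to overlap, against 3.72% of named probe sets. With the methods' t-test, run on the same values, the counts were also 0.

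WT replicate 4 decided these counts. Without it, 5 of the 10 genes had an unadjusted p under 0.05 and were higher in MDR1A KO tumors (Mcpt1, Mcpt2, Mcpt4, Cpa3 and Ms4a2), beside 3.61% of named probe sets. In that fit Mcpt1 and Mcpt2 also met the 2-fold criterion in that direction, beside 0.110%. The groups did not overlap for Mcpt1, Mcpt2, Cpa3 and Ms4a2, beside 3.94% of named probe sets higher in MDR1A KO tumors. Leaving out any other single tumor brought no gene past an unadjusted p of 0.05. WT replicate 4 exceeded the mean of the other WT tumors by 4.08 log2 units in Mcpt1 (17-fold), 3.42 in Mcpt2 (10.7-fold), 1.64 in Mcpt4, 1.34 in Cpa3 and 1.08 in Ms4a2. The excess was 0.75 in Tpsb2, 0.71 in Tpsab1, 0.38 in Cma1 and 0.27 in Kit, while in Hdc the difference was -1.15. The departure was thus widest in the mucosal proteases.

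**Figure D2:**
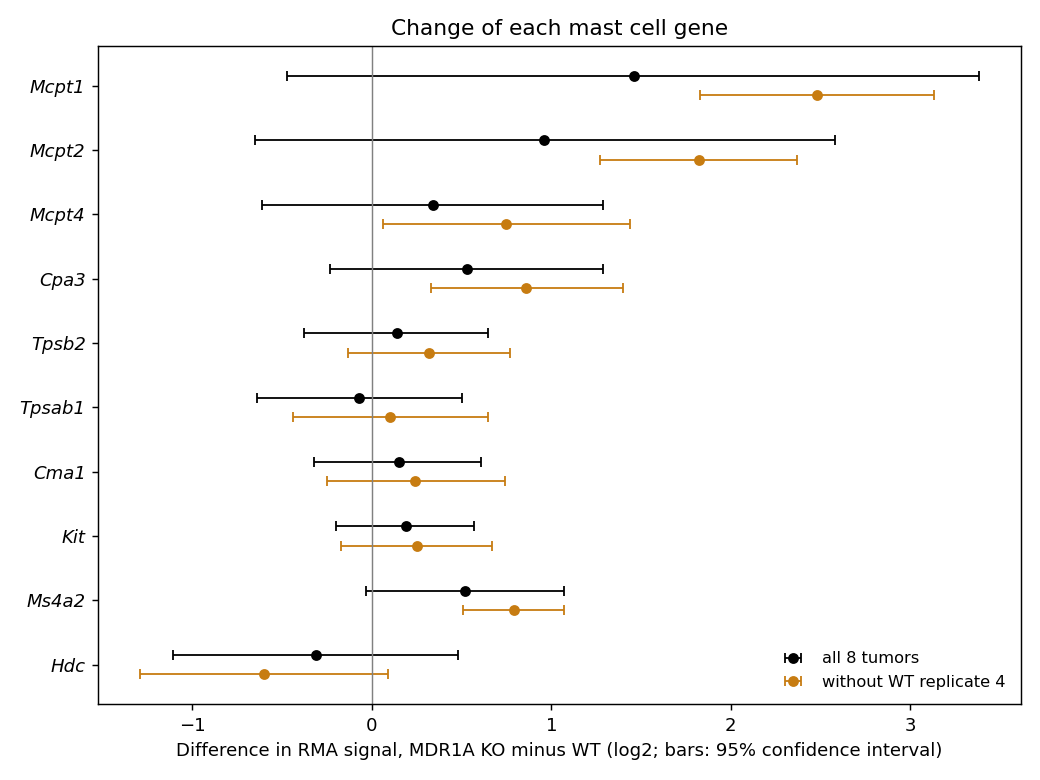
Log2 difference in RMA signal of MDR1A KO minus WT tumors (horizontal axis) with its 95% confidence interval for the 10 genes, from all 8 tumors (black) and without WT replicate 4 (orange). All 10 intervals from the 8 tumors include 0, and those of Mcpt1, Mcpt2, Mcpt4, Cpa3 and Ms4a2 lie above 0 once that tumor is left out.

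The spread was also compared between the groups. For each of the 10 genes the range among WT tumors was wider than among MDR1A KO tumors, as it was for 65.1% of named probe sets. The median range was 0.51 in MDR1A KO tumors and 1.45 in WT tumors over the 10 genes, against 0.30 in MDR1A KO tumors and 0.40 in WT tumors over all named probe sets. In Mcpt1, Mcpt2 and Cpa3 the WT range was at least 4 times the MDR1A KO range, which held for 6.54% of named probe sets. Only 41 of the 25341 named probe sets had a wider range among WT tumors than Mcpt1, and 59 a wider one than Mcpt2. In some genes the direction rested on 1 WT tumor. Without WT replicate 4 the SD of Ms4a2 was 0.07 in WT and 0.2 in MDR1A KO tumors. Without WT replicate 2 that of Kit was 0.03 in WT and 0.16 in MDR1A KO tumors. That of Cma1 was then 0.18 in WT and 0.27 in MDR1A KO tumors. Without WT replicate 4 the SD among WT tumors remained wider for Mcpt1 (0.69 against 0.21) and Mcpt2 (0.56 against 0.21). No test of the spread was made.

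The protease classes were also set against each other within each tumor. Each gene was first centred on its mean over the 8 tumors, since the brightness of different probe sets cannot be compared. The mean of Mcpt1 and Mcpt2 minus that of the 5 connective tissue proteases was 0.25, 0.40, 0.65 and 0.68 in the MDR1A KO tumors, against -1.24, -1.34, -1.0 and 1.60 in the WT tumors. So the mucosal class was relatively high in every MDR1A KO tumor and in WT replicate 4, and relatively low in WT replicates 1 to 3. Among WT tumors the mucosal class alone spanned -2.25 to 2.21 and the connective class -0.91 to 0.61. The difference thus largely repeats the Mcpt1 and Mcpt2 values given above and is not a separate result. The group means were 0.50 ± 0.20 in MDR1A KO tumors and -0.50 ± 1.4 in WT tumors (SD, n = 4 each), with a difference of 0.99, or 1.69 without WT replicate 4. Leaving Cpa3 out of the connective class gave 1.07. The median log2 difference between genotypes was 1.21 for the mucosal proteases and 0.15 for the connective tissue proteases, against 0.00 over all named probe sets.

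**Figure D3:**
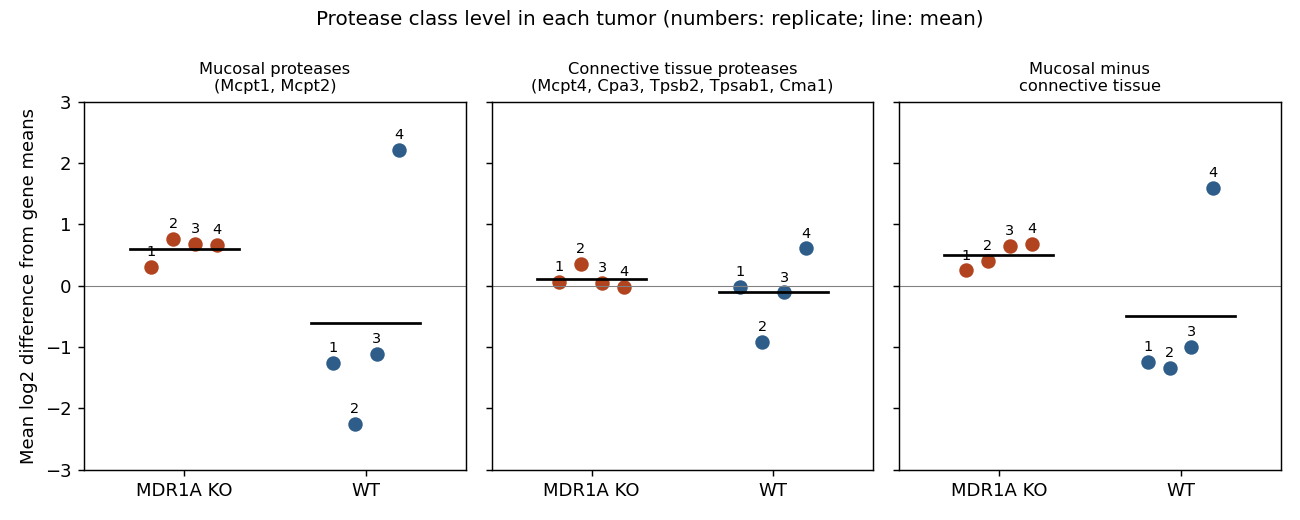
Mean log2 difference from the gene means (vertical axis) of the mucosal proteases, the connective tissue proteases and the first minus the second, in each MDR1A KO and WT tumor, with the replicate number above each point and the group mean as a line. The MDR1A KO tumors lie at 0.25 to 0.68 in the right panel, between WT replicate 4 at 1.60 and the other WT tumors at -1.34 to -1.0.

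The genes fell into groups that varied together. The tryptases and Cma1 were 1 such set: over the 8 tumors Tpsb2 followed Tpsab1 with r = 0.92 and rho = 0.95 (exact permutation p = 0.00144 and 0.00114), and r = 0.72 without the 2 tumors farthest from the median. Between Tpsb2 and Cma1 r was 0.92 and rho 0.88 (exact permutation p = 0.00206 and 0.00724), with r = 0.90 without those 2. For Tpsab1 and Cma1 r was 0.87 and rho 0.88 (exact permutation p = 0.00392 and 0.00724), with r = 0.80 without those 2. The Benjamini-Hochberg adjusted p of r over all 45 gene pairs was 0.0129, 0.0154 and 0.016 in that order. The mean of each genotype was then subtracted from its tumors, and r came to 0.97, 0.92 and 0.93. The pairs with Mcpt1 or Mcpt2 were among the 45 tested. Their p values are not given, because WT replicates 1 to 3, the MDR1A KO tumors and WT replicate 4 formed separate levels. The r values of these pairs are used only to rank likeness. Mcpt4 followed Tpsb2 over all 8 tumors (r = 0.91, rho = 0.83; exact permutation p = 0.00362 and 0.0154, adjusted p of r = 0.016), but r was 0.52 without WT replicates 2 and 4, so the relation rested largely on those tumors.

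**Figure D4:**
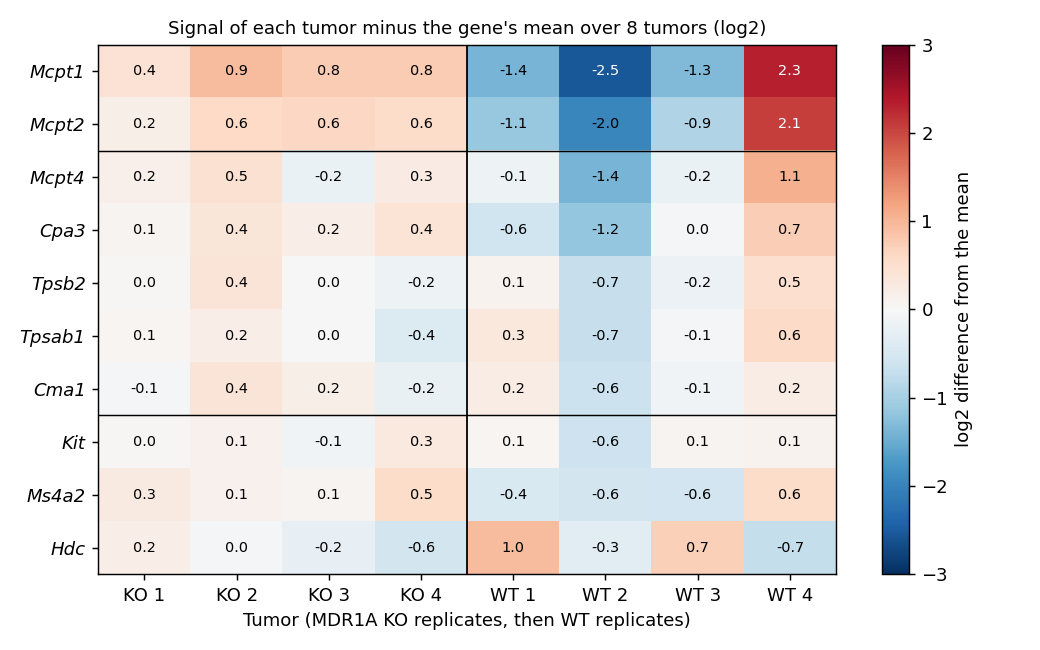
Log2 difference of each tumor (columns, MDR1A KO then WT replicates) from the mean of the gene over 8 tumors (rows), with mucosal proteases above the first line and receptors and Hdc below the second. WT replicate 2 is lowest in 8 of the 10 genes and WT replicate 4 highest in 7, with the widest departures in Mcpt1 and Mcpt2.

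In the mouse reference (RefSeq, GRCm38.p6) the chymase genes lie side by side on chromosome 14, in the order Cma1, Mcpt-ps1, Cma2, Gm5801, Mcpt1, Mcpt2, Mcpt9, Mcpt4 and Mcpt8, followed by Ctsg and granzyme genes. Promoter sequences were at hand for 7 of the 10 genes, and 4 are printed because their genes differed in how strongly they varied among WT tumors, strongly in Mcpt1, less in Mcpt4 and Cpa3 and least in Cma1. Each is the 250 bases before the start of the gene, 5′ to 3′ on the strand of the gene, with matches to GATAA, the core motif of GATA factors, and to TATAAA, the TATA box, in capitals on either strand. The reference is not of the FVB/N strain.
Mcpt1 (chr14:56017714-56017963, plus strand): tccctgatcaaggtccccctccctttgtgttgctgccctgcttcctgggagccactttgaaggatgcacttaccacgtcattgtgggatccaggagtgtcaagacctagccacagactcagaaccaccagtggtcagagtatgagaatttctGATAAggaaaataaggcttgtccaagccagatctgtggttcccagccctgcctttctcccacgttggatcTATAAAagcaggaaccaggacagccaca
Mcpt4 (chr14:56062311-56062560, minus strand): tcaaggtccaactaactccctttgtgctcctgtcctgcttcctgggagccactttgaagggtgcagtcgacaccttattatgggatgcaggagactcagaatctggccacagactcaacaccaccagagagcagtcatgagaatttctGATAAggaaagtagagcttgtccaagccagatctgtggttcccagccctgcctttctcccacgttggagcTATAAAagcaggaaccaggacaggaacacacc
Cma1 (chr14:55944676-55944925, minus strand): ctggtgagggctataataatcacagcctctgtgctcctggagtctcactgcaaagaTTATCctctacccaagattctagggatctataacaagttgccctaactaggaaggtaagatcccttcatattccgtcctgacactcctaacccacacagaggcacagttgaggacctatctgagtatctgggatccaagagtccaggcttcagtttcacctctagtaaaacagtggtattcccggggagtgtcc
Cpa3 (chr3:20242182-20242431, minus strand): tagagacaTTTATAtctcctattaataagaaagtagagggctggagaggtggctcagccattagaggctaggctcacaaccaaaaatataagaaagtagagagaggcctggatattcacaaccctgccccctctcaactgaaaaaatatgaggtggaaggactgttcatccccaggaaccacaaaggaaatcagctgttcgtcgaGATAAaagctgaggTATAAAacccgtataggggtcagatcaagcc

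The windows of Mcpt1 and Mcpt4 had 81.8% identical bases over 258 aligned columns, gaps included, where Cma1 shared 52.7% with Mcpt1 and 53.7% with Mcpt4. Cpa3, on chromosome 3, reached similar values of 52.7% with Cma1, 47.8% with Mcpt1 and 50.6% with Mcpt4. Mcpt1 held 1 GATAA match, starting 98 bases before the gene, and 1 TATAAA match at 28 bases; Mcpt4 held both at 102 and 32 bases. Cpa3 held GATAA at 45 bases and TATAAA at 242 and 31 bases, the first of these on the opposite strand. Cma1 held 1 GATAA match at 194 bases, also on the opposite strand, and no TATAAA in this window. Ms4a2 held 3 GATAA matches, while the windows of Kit and Hdc held no match to either. Of 32851 promoters of the same length, 22.6% held GATAA and 12.4% TATAAA. Mcpt1 and Mcpt4 thus shared most of this sequence and both motifs. Their WT ranges were 4.88 and 2.45 log2 units, and the part of these sequences in those ranges was not tested.

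Along the chymase locus, the range among WT tumors was widest in Mcpt1, Mcpt2, Cma2, Mcpt4 and Mcpt-ps1, at 2.29 to 4.88 log2 units. It was 0.86 in Cma1 and 0.58 in Mcpt8. Of 26 genes between Cma1 and Gzmb, 16 were measured, and none had an unadjusted p under 0.05 in all 8 tumors. Cma2, a second gene of the Cma1 type, had 5.69, 6.08, 6.01 and 5.73 in the MDR1A KO tumors, against 5.40, 4.74, 5.58 and 7.93 in the WT tumors. Mcpt-ps1, an annotated transcribed pseudogene, had 5.84, 6.18, 6.17 and 6.30 in the MDR1A KO tumors, against 5.17, 4.84, 5.78 and 7.13 in the WT tumors. Both were highest in WT replicate 4 and lowest in WT replicate 2, as Mcpt1 was. Without WT replicate 4 their log2 differences were 0.64 for Cma2 (limma, adjusted p = 0.681) and 0.86 for Mcpt-ps1 (adjusted p = 0.581), and with Mcpt1, Mcpt2 and Mcpt4 they made up the 5 of 16 genes with an unadjusted p under 0.05, all higher in MDR1A KO tumors, beside 3.61% of named probe sets in that direction. Mcpt9, whose annotated span lies within that of Mcpt2, stayed at 2.23 to 3.30 in MDR1A KO tumors and 2.76 to 3.56 in WT tumors. These signals lie far below the array medians, so a change could be missed. Gm5801, between Cma2 and Mcpt1, had 6.97 to 7.05 in MDR1A KO tumors and 6.83 to 7.36 in WT tumors. Chymase genes resemble one another in sequence, as do Tpsb2 and Tpsab1, and probe sequences were not used here, so signal shared between related transcripts was not tested.

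**Figure D5:**
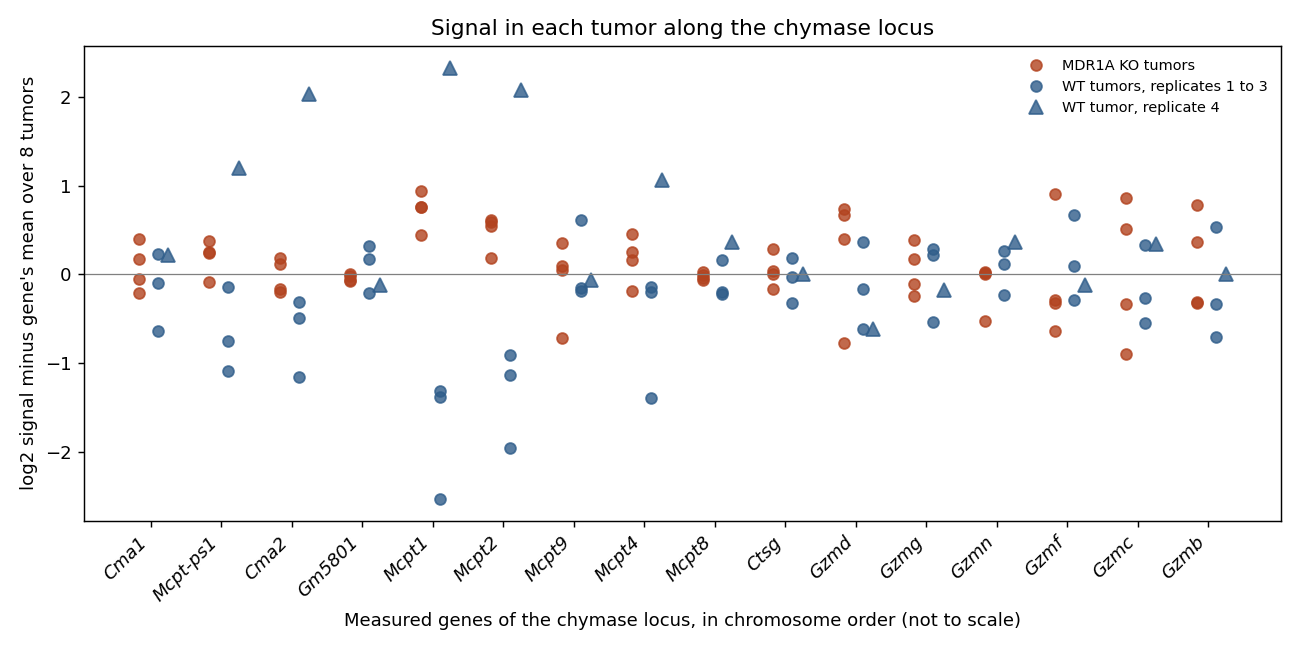
Log2 signal minus the mean of the gene over 8 tumors (vertical axis) for the 16 measured genes of the chymase locus, in chromosome order, with MDR1A KO tumors as red circles, WT replicates 1 to 3 as blue circles and WT replicate 4 as blue triangles. WT replicate 4 stands above all other tumors in Mcpt-ps1, Cma2, Mcpt1, Mcpt2 and Mcpt4, and by a narrower margin in Mcpt8 and Gzmn.

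On the tryptase locus of chromosome 17, 6 of 8 genes were measured. Tpsab1 is annotated as a transcribed pseudogene in this reference. Tpsg1, a membrane-anchored tryptase, had 5.56 to 6.74 in MDR1A KO tumors and 5.67 to 6.58 in WT tumors. No measured gene there had an unadjusted p under 0.05 in all 8 tumors, and without WT replicate 4 only Prss28 did, with a log2 difference of 0.27 (limma, adjusted p = 0.760).

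Few genes of the wider mast cell program were called. None of 9 other granule genes passed an unadjusted p of 0.05 (median log2 difference 0.05), among them Tph1, which makes serotonin, at 6.15, 6.36, 6.81 and 6.41 in MDR1A KO tumors, against 5.76, 5.36, 6.41 and 6.82 in WT tumors. Of 11 measured genes of the IgE receptor and its signalling, 1 was higher and 1 lower at an unadjusted p under 0.05, beside 3.66% and 2.74% of named probe sets. Fcer1g, the gamma chain that the IgE receptor shares with Fc receptors of macrophages, had 9.75, 9.89, 9.49 and 9.64 in MDR1A KO tumors, against 9.57, 9.11, 9.59 and 9.08 in WT tumors, a log2 difference of 0.36 (limma, adjusted p = 0.759; exact permutation p = 0.11). Syk, the kinase recruited to that chain, had 7.74, 7.97, 7.53 and 7.74 in MDR1A KO tumors, against 8.06, 7.90, 8.24 and 7.89 in WT tumors, and its log2 difference was -0.28 (adjusted p = 0.772; exact permutation p = 0.086).

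Signals that grow or attract mast cells gave no call among 11 genes (median 0.03), nor did their 11 measured receptors (-0.13). The epithelial cytokine Tslp had a log2 difference of -0.42 (limma, adjusted p = 0.793), and Il4ra, the receptor chain for IL-4 and IL-13, of -0.35 (adjusted p = 0.782). Itgae and Itgb6 bear on mucosal mast cells, the first as an integrin chain that they carry and the second as an epithelial integrin chain that activates TGF-beta, a cytokine that induces Mcpt1. Their log2 differences were 0.34 (adjusted p = 0.790) for Itgae and -0.24 (adjusted p = 0.843) for Itgb6. Of 6 transcription factors none passed: Gata1 had a log2 difference of 0.23 (adjusted p = 0.798), Mitf of 0.23 (adjusted p = 0.839) and Gata2 of 0.15 (adjusted p = 0.904). Surface markers of connective tissue mast cells (5 genes, median -0.11) and lipid mediator enzymes (4 genes, median 0.09) held no call either, and the prostaglandin D2 synthase Hpgds had a log2 difference of 0.55 (adjusted p = 0.793). Histamine receptors and breakdown enzymes gave none among 6 genes (median 0.03). Without WT replicate 4 an unadjusted p under 0.05 was reached by Tph1 (log2 difference 0.59), Gata2 (0.29), Il4ra (-0.43) and Hrh2 (-0.34). Fcer1g no longer reached it while Syk did (-0.32). In that fit 3.61% of named probe sets were higher and 2.93% lower at this threshold. The adjusted p in limma of the genes that reached it lay between 0.739 and 0.755. Without WT replicate 3 the calls of these lists were instead Ctsc (0.34), Fcer1g (0.44), Lcp2 (0.45), Fyn (0.29), Madcam1 (0.47), Tgfb1 (0.26) and Hnmt (0.35), with Tslp (-0.56) lower, beside 5.55% of named probe sets higher and 3.29% lower. Their adjusted p lay between 0.315 and 0.549. Leaving out other tumors brought further calls in these lists. These were Itgae (0.43) without WT replicate 1, beside 3.11% higher, and Il10 (-0.27) without WT replicate 2, beside 3.0% lower. Without MDR1A KO replicate 2 Il4ra (-0.41), Hrh2 (-0.39) and 1 surface marker (-0.33) were lower, beside 2.23%. Hpgds (0.73) and Gata1 (0.31) were higher without MDR1A KO replicate 3, beside 2.97%, and Hpgds (0.69) without replicate 4, beside 3.05%. The adjusted p of these calls was 0.695 to 0.96.

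Among 3 measured protease inhibitors, 1 was lower at an unadjusted p under 0.05, beside 2.74% of named probe sets. Serpinb1a, an intracellular inhibitor of chymotrypsin-like and elastase-like proteases, had 10.31, 10.37, 9.99 and 10.35 in MDR1A KO tumors, against 10.58, 10.66, 10.59 and 10.49 in WT tumors. Every MDR1A KO tumor lay below every WT tumor, as in 1.59% of named probe sets. The log2 difference was -0.33 (exact permutation p = 0.029, the smallest possible; limma, adjusted p = 0.693).

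Markers of other cells were read beside these results. Basophils, which share IgE receptors and Hdc with mast cells, were represented by 6 genes with a mean level of 4.89 to 5.03 in MDR1A KO tumors and 4.77 to 5.26 in WT tumors, highest in WT replicate 4. Their protease Mcpt8 lay at 4.17 to 4.26 in MDR1A KO tumors and 4.02 to 4.60 in WT tumors. Eosinophil markers stayed at 4.24 to 4.42 in MDR1A KO tumors and 4.31 to 4.38 in WT tumors. These basophil and eosinophil signals lie below the array medians of 5.62 to 5.67, so a change could be missed. Smooth muscle markers, a sign of how much gut wall a sample held, were 9.80, 9.53, 9.40 and 9.71 in MDR1A KO tumors, against 9.10, 7.81, 10.11 and 7.68 in WT tumors. WT replicates 2 and 4 were both low in smooth muscle, and for Mcpt1 they were the lowest and the highest tumor. The part of gut wall content in the Mcpt1 signal was not tested.

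More calls at an unadjusted p under 0.05 fell in lists of other cells, none of which held after adjustment, beside 3.66% of named probe sets higher and 2.74% lower. Of 8 macrophage markers 5 were higher in MDR1A KO tumors, led by Adgre1 at 7.85, 7.65, 8.11 and 7.68, against 7.25, 6.97, 7.42 and 6.98 in WT tumors (log2 difference 0.67; limma, adjusted p = 0.435; exact permutation p = 0.029). Of 10 epithelial markers 2 were lower, Krt20 and Cdx2 (log2 difference -0.65 each; adjusted p = 0.635 and 0.756). Of 6 measured T cell markers Cd3g alone was higher (log2 difference 0.99; adjusted p = 0.757), and WT replicates 2 and 4 were its lowest tumors. Without WT replicate 4 the calls were 3 macrophage markers (Adgre1, C1qb and Lyz2), 1 epithelial marker (Krt20), 0 T cell markers and, lower, the neutrophil marker Ly6g. In that fit 3.61% of named probe sets were higher and 2.93% lower at this threshold. No marker of neutrophils, B cells, fibroblasts, interstitial cells of Cajal or smooth muscle had an unadjusted p under 0.05 in all 8 tumors. The neutrophil marker Ltf did, higher in MDR1A KO tumors, without WT replicate 1, MDR1A KO replicate 3 or MDR1A KO replicate 4. Its log2 differences were 2.3, 2.23 and 2.26 in that order (limma, adjusted p = 0.802, 0.893 and 0.845). Beside it, 3.11%, 2.97% and 3.05% of named probe sets were higher in these fits. For smooth muscle, fibroblasts and B cells, the absence of calls rested on WT replicate 3. Without that tumor 6 of 6 smooth muscle markers were higher in MDR1A KO tumors (median log2 difference 1.33). So were 6 of 8 macrophage, 4 of 6 T cell, 3 of 6 fibroblast and 1 of 5 B cell markers, while 3 of 10 epithelial markers were lower. In that fit 5.55% of named probe sets were higher and 3.29% lower at this threshold. None of these markers passed after adjustment, and none of the 10 mast cell genes was called without that tumor. The part of these cells in the mast cell signals was not tested.

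Other genes tracked the proteases over the tumors. Among 2432 genes whose range was at least 1 log2 unit, the 5 with the highest Pearson r to Mcpt1 were Mcpt2 (0.99), Mrgpra9 (0.96), Mcpt-ps1 (0.95), Cpa3 (0.94) and Mir370 (0.93). Mrgpra9, a gene of the Mas-related receptor family, had 5.05, 5.81, 5.47 and 5.43 in MDR1A KO tumors, against 4.62, 4.27, 4.93 and 6.21 in WT tumors. For Mcpt4 they were Ly6d (0.97), Mir370 (0.92), Tpsb2 (0.91), Cpa3 (0.91) and Gm4224 (0.91). Mir370 reached at most 4.54 and Gm4224 at most 4.72, below the array medians of 5.62 to 5.67. Ly6d had 7.88, 8.63, 7.34 and 8.15 in MDR1A KO tumors, against 7.86, 6.35, 7.51 and 8.85 in WT tumors. With 8 tumors these values rank likeness only and rest on WT replicates 2 and 4, the low and high ends.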

How the data were processed

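Total RNA of 8 colonic tumors was hybridised to GeneChip Mouse Gene 2.0 ST arrays, 1 tumor per mouse and 1 array per tumor. RNA was extracted by either of 2 procedures, and no label ties a tumor to one, so extraction could not be examined. The deposited log2 values are those of the authors, computed by RMA in Affymetrix Expression Console 1.4 (background correction, quantile normalization, summary per probe set). The number of arrays limits precision, and no source used here names the genome build. Of 41345 probe sets, 25341 had a symbol and 1820 of these had several symbols, which named no gene here.

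Differences of MDR1A KO minus WT tumors came from limma 3.58.1 (lmFit and eBayes, R 4.3.3; two-sided, Benjamini-Hochberg over the 25341 named probe sets), tested on simulated data first. Values of single genes were also compared by exact permutation. The methods' t-test, eBayes with trend and robust settings, array weights, other normalizations and filters, a replicate block and leaving out each tumor were alternatives. Replicate numbers did not pair the tumors. Named were all 10 genes, Abcb1a, at most 4 genes per other list by smallest p and the 5 genes most like Mcpt1 and Mcpt4. The genes and lists were chosen with earlier results of these data known, and Cma2, Mcpt9, Gm5801, Tpsg1, Prss28, Fyn, Madcam1 and the other genes of both loci were named after their values were seen. Sequences and gene order came from RefSeq (GRCm38.p6). Permutation tests used numpy 2.4.6, ranks and the adjustment over gene pairs scipy 1.17.1, tables pandas 2.3.3 and plots matplotlib 3.10.9, under Python 3.11.15.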

Additional observations from a re-analysis of the deposited data

Results flagged for a closer look

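In each group of 4 tumors, a tumor was marked when its gap to the nearest other tumor, over the range of the group, exceeded Dixon's 95% critical value. This marked 12 of the gene groups and the difference between protease classes, 13 of 168 groups examined (7.74%), where chance marks about 1 in 20.

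Among the mast cell genes, Ms4a2 in WT replicate 4 stood at 7.19, with the nearest WT tumor at 6.19. Mcpt2 in MDR1A KO replicate 1 was low at 8.94, with the nearest at 9.31, although this gap is small beside the range of WT tumors. Kit in WT replicate 2 was low at 7.20, with the nearest at 7.88. The difference between mucosal and connective tissue proteases was 1.60 in WT replicate 4, against at most -1.0 in the other WT tumors. Mcpt1 itself was not marked.

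Of the other genes, WT replicate 1 stood apart in Il4ra (9.55, high), Ltf (7.61, high), Mmp8 (7.70, high) and Vil1 (10.27, low). Smtn was high at 8.95 in WT replicate 3. In MDR1A KO tumors, replicate 2 was low in Itgb6 (6.66) and high in Ltf (11.09), replicate 3 was low in Serpinb1a (9.99), and replicate 4 was high in Lum (8.72). No cause was tested.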

How the results depend on the processing

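None of the 10 genes was called in the fit reported, so no call of theirs could be reversed. The signs of the differences of Mcpt4, Tpsb2, Cma1 and Tpsab1 changed on leaving out 1 tumor. Among the 10 genes, the count past an unadjusted p of 0.05 was 0 in the fit reported, 2 with array weights (Mcpt1 and Ms4a2), 1 with the replicate block (Ms4a2) and 0 to 5 on leaving out 1 tumor, with the 5 without WT replicate 4. The count past the 2-fold criterion was 0 in the fit reported, 1 with array weights and 0 to 2 on leaving out 1 tumor. No alternative brought a gene past an adjusted p of 0.05. The median difference of the mucosal proteases ranged over 0.66 to 2.15 and that of the connective tissue proteases over -0.07 to 0.32, both on leaving out 1 tumor.

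Over all named probe sets, 61 passed the criterion in the fit reported, 136 when unnamed probe sets were kept, 36 with the methods' t-test and 58 to 123 on leaving out 1 tumor (123 without WT replicate 3). An adjusted p of 0.05 was passed by 4 in the fit reported, by 1 with the methods' t-test, by 7 each with trend and robust settings, array weights or renewed quantile normalization, by 2 with unnamed probe sets kept and by 0 to 4 without 1 tumor. With the replicate block it was passed by 0. The correlations of same-numbered tumors' deviations from their group means were 0.108, 0.0201, -0.101 and 0.353, so the block joins tumors that share only a number. The causes of these shifts were not tested.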
